A study of Mus musculus with 66 samples.

Results

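Glutamate, GABA and glycine receptor genes encode the proteins by which nerve cells receive fast and slow chemical signals. The 34 genes described here are 21 glutamate receptor genes and 13 GABA or glycine receptor genes of the mouse. The regions described are those that the authors' tables assign to these genes by gene name or symbol, which came to 217 of 57678 regions in 7 lists. Of the 34 genes, 31 had at least 1 region, and Grin1, Grin2d and Grm2 had none. Of the 217 regions, 201 were in the CATCH-IT list and 16 were in lists made with an antibody to histone H3.3.

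The study asked where histones are exchanged when neurons are stimulated or when mice live in a richer environment. Cortical neurons from C57bl/6 mouse embryos (E16.5, 8 days in culture) were depolarised with isotonic KCl for 30 min, 2 hr or 5 hr, and unstimulated cultures served as controls at each time. Each of these groups had 3 values per region, which carry no library names, so that libraries are numbered here by the order of their values. Hippocampal nuclei of C57bl/6 mice about 7 weeks old were sorted by NeuN, a nuclear protein of neurons, from mice kept under environmental enrichment and from normally housed mice. NeuN-positive nuclei gave 2 libraries per housing group and NeuN-negative nuclei gave 3, and the labels' protocol gives 4 weeks of enrichment. H3.3 was immunoprecipitated at all 3 times and in both sorted fractions, H3.1/2 at 5 hr, and CATCH-IT, a streptavidin capture, was done at 5 hr. The sequencing lanes in the labels separate KCl from control libraries at 30 min, at 2 hr and in CATCH-IT, and enriched from normally housed libraries in NeuN-negative nuclei. Lane and group cannot be told apart there, whereas the 5 hr H3.3 libraries of both groups carry the same 3 lane numbers. The labels name no sequencing run, so a shared lane number does not show that libraries ran together. In NeuN-positive nuclei the housing groups ran in different lanes as well. These are bulk samples, in which a changed share of a cell type and a changed amount of histone per cell cannot be told apart.

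H3.3 is a histone H3 variant that is placed into chromatin outside of DNA replication, so that it builds up in neurons, which no longer divide. CATCH-IT labels newly made proteins with an amino acid analogue and pulls down chromatin that holds newly made histones. Ionotropic receptors are ion channels opened by the transmitter. The AMPA, kainate and NMDA classes pass cations and excite the cell, and the GABA-A and glycine classes pass chloride and usually inhibit it in the adult. Metabotropic glutamate (mGlu) receptors and GABA-B receptors act through G proteins. In cortex and hippocampus, AMPA receptors carry most fast excitation, and NMDA receptors are known for starting synaptic plasticity.

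Sequences of the H3.3 regions that the results turn on are given here from the mouse build mm9, all read on the plus strand. The first pair lies in introns of Gabrb1, a GABA-A receptor subunit gene read from the plus strand, at chr5:72397881-72398080 (the 30 min list) and chr5:72399781-72399980 (the 5 hr list). They are shown because they were the only regions of 1 receptor gene from 2 culture times that lay close together. Capitals mark CG dinucleotides, the usual sites of DNA methylation, which the 5 hr sequence lacks.
Gabrb1, 30 min: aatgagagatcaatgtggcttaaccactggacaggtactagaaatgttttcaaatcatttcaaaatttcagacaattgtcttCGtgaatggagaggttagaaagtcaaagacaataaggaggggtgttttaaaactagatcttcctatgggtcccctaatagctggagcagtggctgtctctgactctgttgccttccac
Gabrb1, 5 hr: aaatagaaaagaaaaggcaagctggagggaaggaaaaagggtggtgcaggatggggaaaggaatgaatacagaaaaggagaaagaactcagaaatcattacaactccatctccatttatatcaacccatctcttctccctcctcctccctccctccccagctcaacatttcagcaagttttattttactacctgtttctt

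The next 3 sequences were lost after 2 hr of KCl in genes read from the minus strand. They lie at chr7:64580241-64580540 in Gabrg3, a GABA-A receptor subunit gene, and at chr6:135845981-135846180 and chr6:135932421-135932640 in Grin2b, which encodes the GluN2B subunit of NMDA receptors. Capitals mark CG dinucleotides.
Gabrg3, 2 hr: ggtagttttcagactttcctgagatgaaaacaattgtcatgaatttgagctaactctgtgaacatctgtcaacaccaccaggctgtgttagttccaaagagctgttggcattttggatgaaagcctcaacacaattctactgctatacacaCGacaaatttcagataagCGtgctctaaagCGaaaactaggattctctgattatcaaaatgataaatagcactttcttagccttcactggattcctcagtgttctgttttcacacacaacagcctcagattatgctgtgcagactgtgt
Grin2b, 2 hr, farther from the start: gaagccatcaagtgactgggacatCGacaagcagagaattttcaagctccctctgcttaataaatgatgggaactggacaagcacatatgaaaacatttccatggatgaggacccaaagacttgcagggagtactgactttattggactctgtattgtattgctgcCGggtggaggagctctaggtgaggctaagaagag
Grin2b, 2 hr, nearer to the start: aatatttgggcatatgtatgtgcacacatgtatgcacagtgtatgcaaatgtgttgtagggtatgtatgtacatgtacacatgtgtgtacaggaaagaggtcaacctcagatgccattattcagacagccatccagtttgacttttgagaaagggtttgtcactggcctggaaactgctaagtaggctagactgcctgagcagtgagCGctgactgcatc

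A further 3 sequences stand for a motif, a direction and a repeat. The Gria1 region at chr11:56866901-56867100 was the only one of the 16 H3.3 receptor regions with an AP-1 motif, TGANTCA, which is in capitals. Among these 16, the Grik4 region at chr9:42431161-42431360 was the only culture region listed as gained, and capitals there mark CG. In the Gabbr2 region at chr4:46998001-46998200, gained in NeuN-positive nuclei, capitals mark a run of CCTCTG units.
Gria1, 5 hr: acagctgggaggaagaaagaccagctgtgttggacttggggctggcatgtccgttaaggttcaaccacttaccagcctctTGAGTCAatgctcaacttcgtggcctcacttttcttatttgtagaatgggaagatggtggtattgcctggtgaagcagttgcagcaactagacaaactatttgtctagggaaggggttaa
Grik4, 5 hr: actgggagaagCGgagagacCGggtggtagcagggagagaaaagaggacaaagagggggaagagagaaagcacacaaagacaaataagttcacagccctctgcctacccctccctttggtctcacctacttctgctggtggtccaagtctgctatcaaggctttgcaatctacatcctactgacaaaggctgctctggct
Gabbr2, NeuN-positive: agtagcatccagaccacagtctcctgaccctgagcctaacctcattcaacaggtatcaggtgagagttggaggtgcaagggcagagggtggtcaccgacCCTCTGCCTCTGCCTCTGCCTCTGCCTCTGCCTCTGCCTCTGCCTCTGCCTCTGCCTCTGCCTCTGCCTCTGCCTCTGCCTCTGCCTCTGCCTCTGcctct

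The CCTCTG run was 96 bp long. Of all 3121 H3 regions of exactly 200 bp, 0.160% held a tandem repeat of at least 60 bp. Reads from such repeats can be hard to place, and what that did to the counts in Gabbr2 was not tested. TGANTCA, which reads the same on both strands, was in 1 of the 16 receptor regions and in 6.57% of the 3121 regions. The CRE motif TGACGTCA, also its own reverse complement, was in 0 of the 16 and in 0.0641% of all, and the E-box CACGTG, likewise, was in 1 of the 16 (Gabbr2 at 30 min) and in 2.85% of all. A match is a run of letters and does not show that a factor binds there.

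In the H3.3 lists, receptor regions were mostly lower after KCl in culture and mostly higher under enriched housing. The whole lists had the same majorities. Of the 10 culture regions, at 8 genes, 9 were listed as lost and 1, in Grik4, as gained, and 5 of the 9 passed the authors' test. Of the 6 regions under enriched housing, at 5 genes, 5 were gained and 1, in Gabrg3, was lost. Gained means a higher mean normalised read count in the KCl or enriched group, and lost a lower one. The lists hold only regions that the authors had found to differ by about 3-fold or more, so each count is set beside that of its whole list.

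At 30 min the authors' adjusted p was at most 0.05 for 2 of 2 receptor regions, against 98.5% of the 457 regions listed. Both were lost, as were 78.6% of the list, while 19.9% were gained. At 2 hr it was so for 3 of 3, against 99.6% of 689 regions. All 3 were lost, as were 85.3% of the list, while 14.2% were gained. At 5 hr 0 of the 5 receptor regions passed, against 3% of 667 regions, while the authors' unadjusted p was under 0.05 for all 5 and for all 667. Of the 5, 4 were listed as lost, against 55.8% of the list, and 1 as gained, against 44.2%. At 30 min, 2 hr and 5 hr most receptor regions were thus lost, as were most regions of those lists. In NeuN-positive nuclei 3 of 3 passed, against 97.8% of 1642 regions, and all were gained, as were 70.1% of the list, while 27.7% were lost. In NeuN-negative nuclei 3 of 3 passed, against 99.8% of 1196 regions, with 2 gained, against 70.6% of the list, and 1 lost, against 29.3%. In both sorted fractions, too, the receptor regions had the same majority as their lists. The H3.1/2 list had 7 regions, 57.1% of them past 0.05, and 0 at receptor genes. The values of the 2 groups did not overlap in any of the 16 receptor regions, which holds for 100% of the regions in each H3.3 list and so says nothing of receptors.

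**Figure D1:**
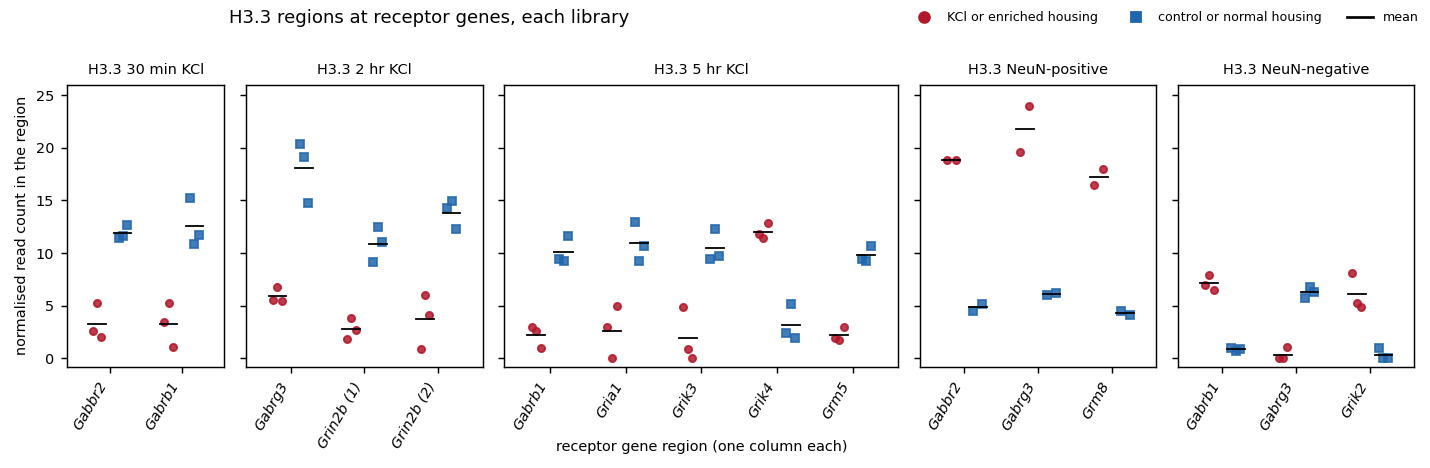
Normalised read counts (y axis) of the libraries in each of the 16 H3.3 regions at receptor genes (x axis), one panel per list, with circles for KCl or enriched housing left of squares for control or normal housing and a bar at each group mean. All culture regions but Grik4 had their KCl values below their control values, and all regions under enriched housing but Gabrg3 in NeuN-negative nuclei had their enriched values above the normally housed ones.

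Among NMDA receptor genes, Grin2b was the only gene of the 34 with 2 regions in the same H3.3 list. In the region of Grin2b farther from the start, 277 kb into the assigned transcript, the KCl cultures had 1.84, 3.79 and 2.72 normalised counts at 2 hr and the controls 9.16, 12.5 and 11.1. In its other region, 191.0 kb into that transcript, the KCl cultures had 0.92, 6.06 and 4.09 and the controls 14.3, 15.0 and 12.3. Every control value was thus above every KCl value in both regions, and KCl value 1 was the lowest in both. The means were 2.78 ± 0.977 in KCl and 10.9 ± 1.67 in control cultures for the first region, and 3.69 ± 2.59 in KCl and 13.8 ± 1.41 in control cultures for the second (SD, n = 3 each). The authors' deposited table gives log2 fold changes of -1.97 (adjusted p = 0.0230) and -1.91 (adjusted p = 0.0177). Without KCl value 1 the second region's means differed by 2.73-fold and no longer by 3-fold. The regions were 86.2 kb apart, both in introns. No region of Grin1, the subunit gene that all NMDA receptors need, of Grin2a, Grin2c, Grin2d or of Grin3a was in an H3.3 list.

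Of the AMPA receptor genes, only Gria1, which encodes the GluA1 subunit, was in an H3.3 list. Its region lies 41.8 kb into the gene, in an intron. At 5 hr it had 2.95, 0 and 4.96 normalised counts in KCl cultures and 13.0, 9.23 and 10.7 in controls. The KCl group held 8 reads in all and the control group 31, and KCl library 2 held none. The means were 2.64 ± 2.49 in KCl and 10.96 ± 1.89 in control cultures (SD, n = 3 each), with all KCl values below all controls. The authors' deposited table gives -2.06 on the log2 scale (adjusted p = 0.103), which misses 0.05. Leaving out KCl value 2 brought the difference to 2.77-fold.

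Kainate receptor genes had regions in both directions. Grik3 (GluK3), at chr4:125291121-125291320, 123 kb into the gene, had 4.92, 0.88 and 0 normalised counts in KCl cultures at 5 hr and 9.44, 12.3 and 9.70 in controls. Its means were 1.93 ± 2.62 in KCl and 10.5 ± 1.58 in control cultures (SD, n = 3 each), and KCl library 3 held no read. The authors' deposited table gives it a log2 fold change of -2.44 and an adjusted p of 0.0948. Grik4 (GluK4) had 11.8, 11.4 and 12.9 in KCl cultures and 2.36, 5.13 and 1.94 in controls, in a region that touches a coding exon 321 kb into the gene. Among H3.3 regions that the authors assigned to receptor genes, only that of Grik4 had all KCl values above the controls. An unassigned region inside Grm4 is described at the end. The Grik4 means were 12.0 ± 0.773 in KCl and 3.14 ± 1.73 in control cultures (SD, n = 3 each). The authors' deposited table gives it a log2 fold change of 1.94 and an adjusted p of 0.105. Grik4 was also the only one of the 16 regions in an exon, the other 15 being intronic.

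Grik2 (GluK2) was in the NeuN-negative list, gained under enriched housing in an intron at chr10:49238861-49239060, 264 kb from the start of the assigned transcript. Its values were 8.14, 5.28 and 4.88 in enriched mice and 0.95, 0 and 0 in normally housed mice. They stand for 7, 2 and 9 reads in enriched mice and 1, 0 and 0 reads in normally housed mice. The ratio of reads, enriched over normally housed and scaled to what a read was worth, was 21.3 with an exact 95% interval of 3.36 to 886. That interval covers counting error only. The region was listed because these counts differed, so the interval is no test of the difference. The authors' deposited table gives an adjusted p of 0.00466.

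Of the metabotropic genes, Grm5 (mGlu5, coupled to calcium release) was listed as lost in culture and Grm8 (mGlu8, a presynaptic receptor that lowers transmitter release) was gained in hippocampus. Grm5, at chr7:95094721-95094920, 362 kb into the gene, had 1.97, 1.76 and 2.98 normalised counts in KCl cultures at 5 hr and 9.44, 9.23 and 10.7 in controls. The values within each group lay close together, at 2.24 ± 0.652 in KCl and 9.78 ± 0.778 in control cultures (SD, n = 3 each). The authors' deposited table gives a log2 fold change of -2.13 and an adjusted p of 0.110, so that this region too misses 0.05. Grm8 had 16.48 and 17.98 in NeuN-positive nuclei of enriched mice and 4.52 and 4.11 in those of normally housed mice. The means were 17.2 ± 1.06 in enriched and 4.32 ± 0.29 in normally housed mice (SD, n = 2 each), in a list where groups overlapped in no region. The authors' deposited table lists it at 2.00 on the log2 scale (adjusted p = 0.0395), and the region lies in an intron at chr6:27998841-27999040, 86.2 kb from the start of the assigned transcript.

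GABA-A receptor genes in the H3.3 lists were Gabrb1, which encodes the beta-1 subunit, and Gabrg3, which encodes the gamma-3 subunit. Each had a region in 3 of the lists. Gabrb1 at 30 min had 3.46, 5.26 and 1.03 normalised counts in KCl cultures and 15.2, 10.8 and 11.7 in controls. At 5 hr its other region had 2.95, 2.63 and 0.99 in KCl cultures and 9.44, 9.23 and 11.6 in controls. Controls were the higher group in both, with means of 3.25 ± 2.12 in KCl and 12.6 ± 2.32 in control cultures at 30 min, and 2.19 ± 1.05 in KCl and 10.1 ± 1.33 in control cultures at 5 hr (SD, n = 3 each). The regions were 1700 bp apart, 307 kb and 309 kb into the gene. The authors' deposited table gives log2 fold changes of -1.95 (adjusted p = 0.0278) at 30 min and -2.20 (adjusted p = 0.109) at 5 hr, so only the first passed 0.05. No Gabrb1 region was listed at 2 hr.

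The 30 min region of Gabrb1 was the only one of the 16 whose ratio to input went against its counts. The authors' deposited table gives ratios of 1.94 in KCl and 1.58 in control cultures, although the counts were lower in KCl. In the other 15 regions the ratios to input ran the same way as the counts. Without KCl value 3, the lowest, the 30 min means of Gabrb1 differed by 2.89-fold.

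Under enriched housing Gabrb1 was gained in NeuN-negative nuclei, in an intron at chr5:72489201-72489400, 398 kb into the gene and 89.2 kb beyond its 5 hr region. It had 6.98, 7.93 and 6.51 normalised counts in enriched mice and 0.95, 0.68 and 0.90 in normally housed mice. Each normally housed library held 1 read there. The ratio of reads was 8.27, enriched over normally housed, with an exact 95% interval of 2.47 to 43.3. As for Grik2, it covers counting error only, in a region listed for its difference. The authors' deposited table gives an adjusted p of 0.00556.

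Gabrg3 at 2 hr was the only H3.3 region of a receptor gene that the authors' deposited table put in its promoter class, with a distance of 2183 bp. That distance runs from the low-coordinate end of the assigned transcript, which is its 3′ end, and the region lay 62.2 kb from the start. It had 5.51, 6.82 and 5.45 normalised counts in KCl cultures and 20.4, 19.2 and 14.7 in controls, or 5.93 ± 0.774 in KCl and 18.1 ± 2.97 in control cultures (SD, n = 3 each). In this region 19 reads in KCl stood against 55 in controls. The authors' deposited table gives a log2 fold change of -1.61 and an adjusted p of 0.0143. The difference was close to the 3-fold limit of the lists: it came to 2.86-fold to 2.96-fold when KCl value 1 or 3, or control value 1 or 2, was left out.

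In hippocampus Gabrg3 was gained in NeuN-positive and lost in NeuN-negative nuclei, at chr7:64051981-64052260 and chr7:64541081-64541280, 489 kb apart. In NeuN-positive nuclei it had 19.6 and 24.0 normalised counts in enriched mice and 6.02 and 6.16 in normally housed mice, and the authors' deposited table lists it at 1.84 on the log2 scale (adjusted p = 0.0341). In NeuN-negative nuclei it had 0, 0 and 1.08 in enriched mice and 5.69, 6.76 and 6.33 in normally housed mice. That is 2 reads in enriched and 23 in normally housed mice, a ratio of 0.103, enriched over normally housed (exact 95% interval 0.0117 to 0.416, counting error only, in a region listed for its difference). The authors' deposited table gives it an adjusted p of 0.00776. The Gabrg3 regions lay at 96.6% (2 hr), 88.0% (NeuN-positive) and 48.5% (NeuN-negative) of 3 different assigned transcripts, counted from their starts, and no stretch of Gabrg3 was listed more than once.

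Gabbr2 encodes the GABA-B subunit that couples the receptor to its G protein. At 30 min it had 2.59, 5.26 and 2.06 normalised counts in KCl cultures and 11.4, 11.7 and 12.7 in controls, in an intron at chr4:46783001-46783200, 222 kb into the gene. The means were 3.303 ± 1.72 in KCl and 11.9 ± 0.684 in control cultures (SD, n = 3 each), with little spread among controls, and the authors' deposited table gives a log2 fold change of -1.85 and an adjusted p of 0.0290. In NeuN-positive nuclei the CCTCTG-bearing region of Gabbr2, 6.64 kb into the gene, had 18.8 and 18.8 in enriched mice and 4.52 and 5.14 in normally housed mice. The authors' deposited table lists it at 1.96 on the log2 scale (adjusted p = 0.0368). The Gabbr2 regions were 214.8 kb apart. No glycine receptor gene and no Gabbr1 region was in an H3.3 list.

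Over the KCl time points, then, Gabbr2 and Gabrb1 were listed at 30 min, Gabrg3 and Grin2b at 2 hr, and Gabrb1, Gria1, Grik3, Grik4 and Grm5 at 5 hr. Gabrb1 was the only receptor gene listed at more than 1 time. A region missing from a list was not measured there as unchanged, since the lists hold no other regions. By size of fold change the receptor regions ranked between 193 (Gabrb1) and 295 (Gabbr2) of 457 at 30 min, between 353 (Grin2b) and 669 (Gabrg3) of 689 at 2 hr, and between 21 (Grik3) and 287 (Grik4) of 667 at 5 hr. Under enriched housing they ranked between 569 (Grm8) and 1032 (Gabrg3) of 1642 in NeuN-positive nuclei and between 95 (Grik2) and 513 (Gabrb1) of 1196 in NeuN-negative nuclei.

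**Figure D2:**
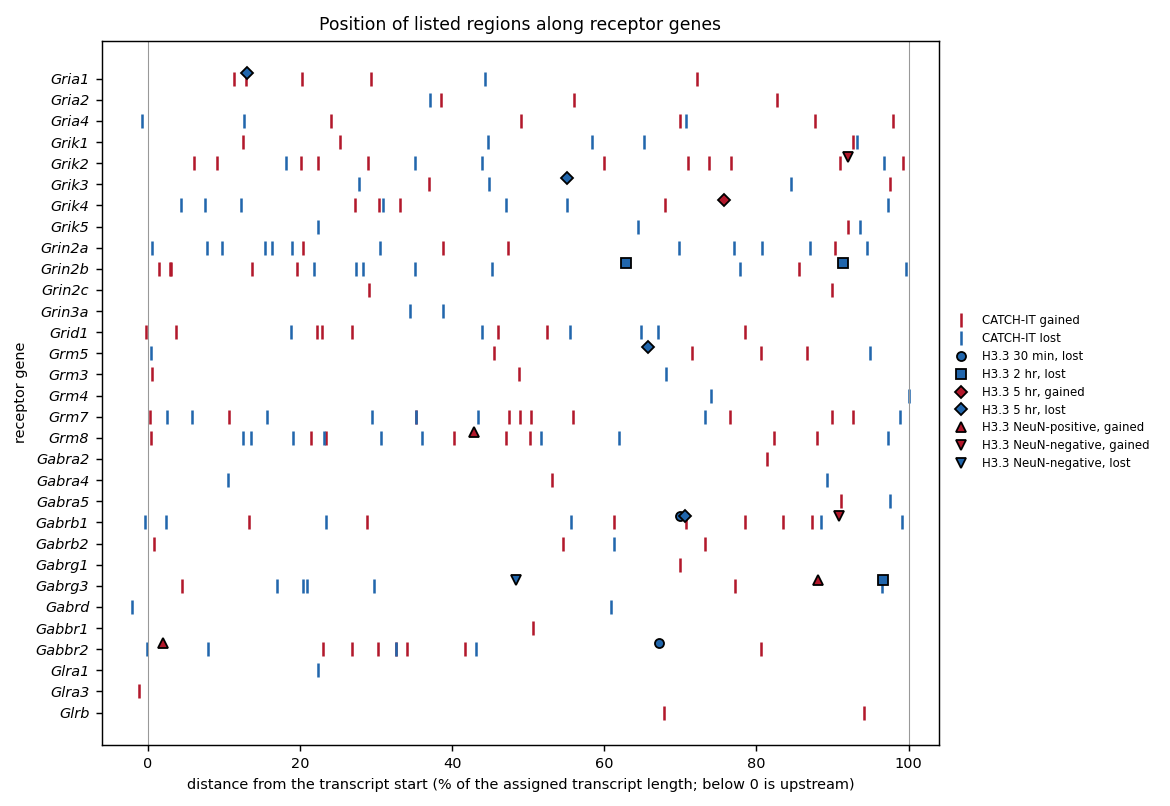
Position of each region along its receptor gene as a percentage of the assigned transcript (x axis; 0 is the start, 100 the end), one row per gene, with ticks for CATCH-IT and symbols for H3.3 lists, red for gained and blue for lost. Regions were spread along the genes (for Gabrg3, Gria4, Grik2, Grin2b and Grm8 the tables assign transcripts of different length, so marks within those rows have different scales), and the Gria1 and Gabrb1 symbols for 5 hr of KCl sit beside a red CATCH-IT tick.

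In CATCH-IT after 5 hr of KCl, 105 receptor regions were gained and 96 were lost, a share gained of 52.2% (exact 95% interval 45.1% to 59.3%, counting error only). The interval treats regions as independent, although they share their libraries and lie in 31 genes, so it is too narrow for differences between libraries. All 201 passed the authors' adjusted p of 0.05, as did 100% of the 53020 regions listed. In the whole list 57.3% of regions were gained and 42.7% lost, and among all regions at genes 57.4% were gained. Of the 31 genes, 21 had both gained and lost regions, 6 had only gained and 4 had only lost. More gained than lost regions were found in 17 genes, the reverse in 13, and 1 gene was tied. Glutamate receptor genes had 78 gained and 74 lost, and GABA and glycine receptor genes 27 gained and 22 lost.

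**Figure D3:**
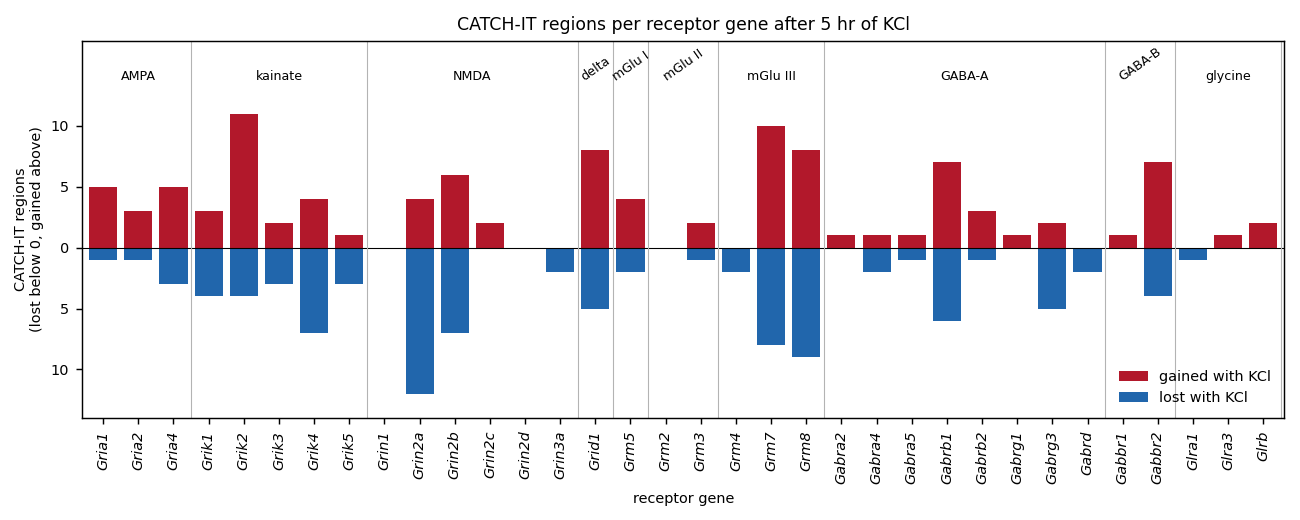
Number of CATCH-IT regions (y axis) per receptor gene (x axis, grouped by class) after 5 hr of KCl, with gained regions as red bars above 0 and lost regions as blue bars below 0. Grik2 had the most gained regions, 11, and Grin2a the most lost, 12.

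AMPA receptor genes had 13 gained and 5 lost regions. Gria1 had 5 gained and 1 lost, Gria2, whose product makes the channel impermeable to calcium when edited, 3 gained and 1 lost, and Gria4 5 gained and 3 lost. For each gene the region with the smallest adjusted p is called its leading region. In that of Gria1, the KCl libraries had 8.02, 3.20 and 19.0 normalised counts (6, 6 and 7 reads) and the controls 0 each. Gria2 had 13.36, 1.60 and 8.15 in KCl and 0 in each control in its leading region. Gria4 had 6 reads in each KCl library and 0 in each control there. Gained regions of Gria2 and Gria4 also touched a coding exon each.

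Kainate receptor genes were even, with 21 gained and 21 lost. Grik2 had 11 gained and 4 lost, while Grik4 had 4 gained and 7 lost, Grik1 3 and 4, Grik3 2 and 3, and Grik5 1 and 3. The leading Grik2 region had 8.02, 3.20 and 21.7 normalised counts in KCl and 0 in each control. The leading Grik4 region had 25.4, 4.79 and 24.5 in KCl (19, 9 and 9 reads) and 0 in each control. With 37 reads it was among the better covered of the receptor regions, whose higher group held a median of 18 reads in all (8 to 52). Of the 3 lost regions of Grik5, 2 touched coding exons.

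NMDA receptor genes had 12 gained and 21 lost regions, a share gained of 36.4%. Grin2a, which encodes GluN2A, the subunit that becomes more abundant as cortex matures, had 4 gained and 12 lost and made up most of the difference. Grin2b had 6 gained and 7 lost, Grin2c 2 gained and 0 lost, and Grin3a 0 gained and 2 lost. The leading Grin2a region had 0 in each KCl library and 7.57, 15.2 and 14.2 normalised counts in controls (24, 11 and 12 reads). The leading Grin2b region had 0 in each KCl library and 9.15, 11.1 and 14.2 in controls (29, 8 and 12 reads). The 0 reads in 3 KCl libraries allow up to 3 reads over the group by counting error. Both regions were listed for this difference, so that bound is no test of it. Of the 201 receptor regions, 198 had 0 reads throughout the lower group. Control library 3 held exactly 12 reads in both, as in 67.7% of lost receptor regions and 67.6% of lost regions in the whole list. A further lost Grin2a region lay 2.48 kb from the transcript start, with 0 in each KCl library and 1.89, 15.2 and 14.2 in controls. Without Grin2a the NMDA genes had 8 gained and 9 lost.

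Grid1, which encodes the delta-1 receptor, a synaptic organiser of the glutamate receptor family, had 8 gained and 5 lost regions. A gained Grid1 region lay 1.41 kb upstream of the transcript start, with 8.02, 6.39 and 16.3 normalised counts in KCl (6, 12 and 6 reads) and 0.32, 0 and 0 in controls. It was among only 3 receptor regions of the CATCH-IT list with any read in the lower group. The other 198 had 0 reads in all libraries of that group, so the authors' deposited table holds no finite fold change for them and none is given here.

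Metabotropic receptor genes had 24 gained and 22 lost regions. Grm7, the longest of the 34 genes at 922 kb, had the most regions, 10 gained and 8 lost, and Grm8 had 8 and 9. Grm5 had 4 gained and 2 lost, Grm3 2 and 1, and Grm4 0 and 2. In the leading Grm7 region the KCl libraries had 34.7, 1.07 and 10.9 normalised counts and the controls 0 each. KCl library 1 held 26 of its 32 reads. Grm8 had 17.4, 3.20 and 10.9 in KCl and 0 in each control, and Grm3, in an intron 1.54 kb from the transcript start, 4.01, 6.92 and 5.44 in KCl and 0 in each control. Grm4 had a lost region over the end of its transcript, with 0 in each KCl library and 2.21, 8.32 and 14.2 in controls.

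GABA-A receptor genes had 16 gained and 17 lost regions. Gabrb1 had 7 and 6 and Gabrg3 2 and 5, so that both long genes listed for H3.3 had CATCH-IT regions in both directions. Gabrb2, which encodes the common beta-2 subunit, had 3 gained and 1 lost, Gabra4 1 and 2, and Gabra5 1 and 1. Gabra2 and Gabrg1 had 1 gained region each, and Gabrd, whose delta subunit sits outside the synapse, had 2 lost. The leading Gabrb2 region had 33.4, 4.79 and 29.9 normalised counts in KCl (25, 9 and 11 reads) and 0 in each control. The leading Gabrd region had 0 in each KCl library and 3.79, 16.6 and 8.28 in controls. A lost Gabrd region also lay just upstream of the transcript start, but 12 of its 16 control reads came from library 2.

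Gabbr2 had 7 gained and 4 lost regions and Gabbr1, which encodes the subunit that binds GABA, 1 gained. The leading Gabbr2 region was the only receptor region in which the groups overlapped. It had 0, 0 and 2.72 normalised counts in KCl (0, 0 and 1 reads) and 0.32, 38.8 and 1.18 in controls (1, 28 and 1 reads). Control library 2 was high and the rest were near 0, yet the authors' deposited table gives this region an adjusted p of 4.15e-07, the smallest value among the receptor regions. Groups did not overlap in the other 200 of 201 regions, against 99.2% of the list. Among the glycine receptor genes, Glrb, whose beta subunit anchors the receptor at the synapse, had 2 gained, Glra3 1 gained and Glra1 1 lost. The leading Glrb region had 16.0, 6.39 and 46.2 in KCl (12, 12 and 17 reads) and 0 in each control, the highest KCl mean among these leading regions, 22.9 ± 20.8 (SD, n = 3).

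Read numbers per library in the CATCH-IT regions piled up at 6 and 12. Of the 201 regions, 16 (7.96%, against 6.75% of the list) had exactly 6 reads in each of the 3 libraries of the higher group. Of these 16, 10 were gained and 6 lost. The leading regions of Gria4, Grid1, Gabrb1, Grik1 and Grm5 were all of this kind, so their values (8.02, 3.20 and 16.3 in KCl) were identical and their SD reflects only what a read was worth in each library. The library with most reads held exactly 12 in 23 of 105 gained regions (21.9%) and in 76 of 96 lost regions (79.2%). In the whole list these shares were 22.8% and 80.6%. Control library 3 held exactly 12 reads in 65 of the 96 lost regions (67.7%, against 67.6% in the whole list). KCl library 2 did so in 24 of the 105 gained ones (22.9%, against 23.2%). The name of the CATCH-IT table carries a duplicate setting of 6, and its part in these numbers was not tested.

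**Figure D4:**
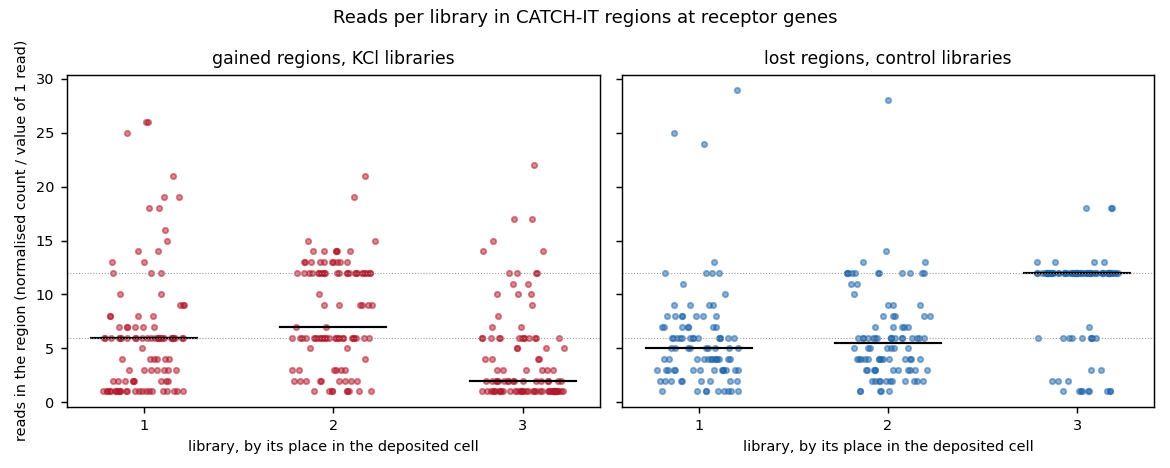
Reads per library (y axis) in CATCH-IT regions at receptor genes, for the 3 KCl libraries in gained regions (left) and the 3 control libraries in lost regions (right), with a bar at each median and dotted lines at 6 and 12 reads. Points gather at 6 and 12, and most points of control library 3 sit at 12.

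A single library often carried the value. In 81 of the 201 regions (40.3%) 1 library held over 66.7% of the higher group's reads, against 37.7% of the list. Of those 81 regions 53 were gained, and of the remaining 120, 52 were gained (43.3%; whole list 46.7%). Width went with direction too: 89 regions were exactly 380 bp wide, 64 of them gained, while of the 112 others 41 were gained (36.6%; whole list 41.7%). The balance of gained and lost receptor regions therefore turned from a gained to a lost majority without either kind of region, in the receptor genes as in the whole list. NMDA genes had more lost than gained regions under each restriction, with 6 gained and 14 lost outside the 380 bp width and 4 gained and 16 lost without regions carried by 1 library. AMPA genes had more gained than lost, with 6 and 3, and 7 and 4. Kainate genes, even before, had 11 gained and 17 lost, and 8 gained and 14 lost. Among the regions carried by 1 library, NMDA genes had 8 gained and 5 lost, in a list where 74.6% of such regions were gained. The NMDA counts include Grin2a, which had 4 gained and 12 lost before any restriction, and they were not repeated without it. What set width and read number was not tested.

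The number of CATCH-IT regions followed gene length. Over the 34 genes Pearson's r was 0.883 and Spearman's rho 0.866, a description across genes that share their libraries. Receptor genes had 2.09 regions per 100 kb, against 2.27 over all protein-coding genes and 2.00 over those of at least 100 kb. NMDA genes had 2.92 per 100 kb, GABA-B 3.35, kainate 2.34, AMPA 2.21, group III mGlu 1.98 and GABA-A 1.88. Grin2a had 3.83, and Gabrg3, although 671 kb long, 1.04. The 3 genes without a region were short, at 28.007 kb (Grin1), 39.0 kb (Grin2d) and 11.6 kb (Grm2). Gabrd and Grin2c, at 13.1 kb and 18.1 kb, had 2 regions each.

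**Figure D5:**
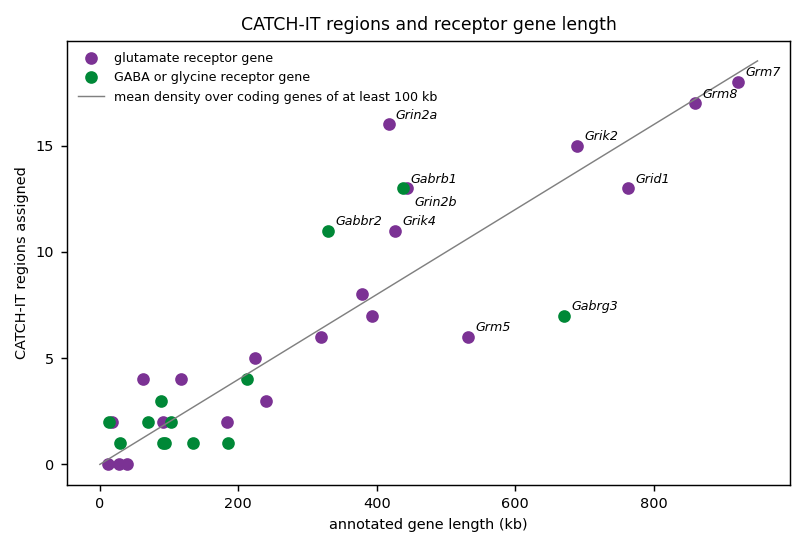
Number of CATCH-IT regions (y axis) against annotated gene length in kb (x axis) for the 34 receptor genes, with a line at the mean density of protein-coding genes of at least 100 kb. Most genes lie near the line, Grin2a above it and Gabrg3 and Grm5 below it.

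CATCH-IT regions at receptor genes lay mainly in introns. By the gene annotation 182 were intronic, 8 touched a coding exon, 3 an untranslated exon and 1 a non-coding exon, and 7 lay outside the annotated gene. The authors' promoter class held 10 of them (4.98%), against 11.6% of all CATCH-IT regions at genes. Of those 10, 4 were gained (Gabrb2, Glra3, Grid1 and Grm3) and 6 lost (Gabbr2, Gabrb1, Gabrd, Gria4, Grin2a and Grm5). Over all 201 regions the median distance from the transcript start was 141308 bp, against 39280.5 bp for all regions at genes, in genes that are mostly long. Of the 191 receptor regions in the authors' gene-body class, 55.5% lay before the midpoint of the transcript, against 46.0% of all 20667 regions of that class, with 52.5% of gained and 58.9% of lost ones. Gene length was not matched in this comparison or in that of the promoter class, and its part in them was not tested. The median GC content of the 201 regions was 40.3%, against 43.0% over the list.

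None of the 16 H3.3 regions overlapped any of the 201 CATCH-IT regions by even 1 bp, but in Gria1 and Gabrb1 they were near neighbours with opposite directions. The Gria1 region listed as lost for H3.3 at 5 hr lay 240 bp from the leading gained CATCH-IT region of the gene at the same time. The Gabrb1 region listed as lost for H3.3 at 5 hr lay 420 bp from a gained CATCH-IT region with 4.01, 3.20 and 5.44 normalised counts in KCl (3, 6 and 2 reads) and 0 in each control. The 30 min region of Gabrb1 lay 2320 bp from that region. A CATCH-IT region within 500 bp was found for 2 of the 5 receptor regions at 5 hr, against 3.45% of the 667 regions of that list. For the other H3.3 lists it was 0 receptor regions, against 3.06% to 3.59% of each list. Neither H3.3 difference passed an adjusted p of 0.05, and this nearness was looked for after the positions were seen.

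Genes of receptor auxiliary and anchoring proteins had regions in the H3.3 lists and in the much longer CATCH-IT list. Of 30 auxiliary and anchoring genes, Dlg2, which encodes the postsynaptic scaffold PSD-93, had a region listed as lost in 4 H3.3 lists. Its log2 fold changes in the authors' deposited table were -2.28 at 30 min (adjusted p = 0.0257), -2.10 at 2 hr (adjusted p = 0.0107), -1.67 at 5 hr (adjusted p = 0.0925) and -2.91 in NeuN-negative nuclei (adjusted p = 0.00297). In the same order, these separate regions started at positions 99103361, 98955161, 99334881 and 99418461 of chromosome 7. Dlg2 is long: its 5 hr region lay 1095690 bp from the transcript start, while the longest of the 34 receptor genes, Grm7, measures 922 kb. The part of gene length in its presence in several lists was not tested. Lost regions past 0.05 were 78.6% of the 30 min, 85.3% of the 2 hr and 29.3% of the NeuN-negative list. At 5 hr 55.8% were listed as lost. Cacng4 and Cnih3, both AMPA receptor auxiliary genes, were gained in NeuN-positive nuclei, at 1.85 (adjusted p = 0.0316) and 1.96 (adjusted p = 0.0418) on the log2 scale in the authors' deposited table, and Cacng3, another, was lost there at -2.17 (adjusted p = 0.0341). Cacng4 was also listed as gained at 5 hr, at 1.97 (adjusted p = 0.0910), and Grip1, which binds AMPA receptors, was gained in NeuN-negative nuclei, at 2.85 (adjusted p = 0.00556), both from the authors' deposited table. In CATCH-IT 20 of the 30 had regions, 66 gained and 57 lost, in a list of 53020 regions of which 57.3% were gained.

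Cell type markers were in the lists too. At 30 min 2 of 5 neuron markers, Snap25 and Syt1, had a lost region and 1 of 3 endothelial markers, Pecam1, a gained one. Of that list 78.6% of regions were lost and 19.9% gained. In NeuN-positive nuclei 1 of 5 astrocyte markers (Aldh1l1) and 1 of 5 oligodendrocyte lineage markers (Mbp) had a gained region, against 70.1% of the list gained. In NeuN-negative nuclei 1 of 4 microglia markers (P2ry12) had a lost one, against 29.3% of the list lost. In CATCH-IT the markers had 15 regions for neurons (7 gained), 13 for astrocytes (6 gained) and 5 for the oligodendrocyte lineage (2 gained). There was 1 for microglia (0 gained), and endothelium had 8 (6 gained), in a list of which 57.3% was gained. The part of these markers in the receptor results was not tested. The lists give no level at genes that were not called different, so the labelled cell types could not be checked against their markers.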

How the data were processed

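The 66 samples were immunoprecipitation, CATCH-IT and input libraries, and 7 tables of regions called as different were used. The submitters' processing notes list mm9, bedtools 2.16.2 and Bowtie 0.12.7, and the region caller and its test are not given in the sources used here. Per the file headers, the authors deposited normalised read counts of each library, packed without library names, and their group mean, a coverage signal. The authors also deposited a ratio of each mean to input, a log2 fold change and a p-value with its adjusted form per region. The smallest absolute log2 fold change was 1.59. At 30 min the labels name 4 control libraries, 1 being a repeat, but each region had 3 control values. Normalisation was the authors', within each table, so levels were compared within a table only. Per-sample columns left unused numbered 0.

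Low values of each library were whole multiples of the value of 1 read within 0.1, for 100% of those tested, after the same step was tested on simulated data. A read was worth 0.758 to 1.36 normalised counts in H3.3 culture libraries, 0.315 to 2.72 in CATCH-IT, 0.785 to 1.51 in NeuN-positive and 0.542 to 2.64 in NeuN-negative libraries. No step was found for H3.1/2. Library totals were not used here. Intervals and floors cover counting error only. Intervals of read ratios are for regions already listed for their difference on the same libraries, so they are no test of it.

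Regions were assigned by the authors' gene name, Ensembl IDs being translated with GENCODE vM1 (2354 of 2356 found), whose transcript ends matched the tables for 98.4% of 2334 transcripts. The authors' distances to transcript starts ran from the low-coordinate end for 100% of minus-strand regions in the 30 min, 2 hr and NeuN-negative tables, so distances and positions there were recomputed by strand; the deposited promoter and gene-body classes were not changed. Positions in exons, gene lengths and sequences came from that annotation and its genome, read with pysam 0.24.0, pandas 2.3.3 and scipy 1.17.1 in Python 3.11.15. The H3 regions had been chosen on the same libraries, so no new test per region was run: a call is the authors' adjusted p of at most 0.05. With 3 against 3 values an exact two-sided permutation test could not go below 0.1, and with 2 against 2 not below 0.333. The labels' protocol calls the samples biological replicates, 3 per group in culture and 2 in vivo.

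The members, lists and tests were chosen with earlier results of these data known. Every member in an H3.3 list is named with each region, and in CATCH-IT by its counts and for most genes the region of smallest adjusted p, ties going to the higher mean. That rule also asked for every region whose groups do not overlap, which was 200 of 201, so the others are given as counts and ranges. Alternatives were other thresholds, region classes, added counts, leaving out each value, and, added after the data were seen, leaving out regions of 380 bp or those carried by 1 library. A list of further receptor genes is not reported here.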

Additional observations from a re-analysis of the deposited data

Results flagged for a closer look

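Gabrg3 ran in opposite directions in the 2 sorted fractions under the same contrast, enriched against normally housed. Its NeuN-positive region was gained, with a log2 fold change of 1.84, and its NeuN-negative region was lost, with -4.11, both from the authors' deposited table. Both enriched values lay above both normally housed values in NeuN-positive nuclei, and all 3 enriched values lay below the normally housed ones in NeuN-negative nuclei. In both lists 100% of regions had groups that did not overlap, so this says nothing particular of Gabrg3. The NeuN-negative loss was 2 reads in enriched against 23 in normally housed mice. The regions were 489 kb apart, and the difference between the fractions was not tested.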

How the results depend on the processing

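With a threshold of 0.01 the 2 regions at 30 min, the 3 at 2 hr and the 3 in NeuN-positive nuclei became 0, while the 3 in NeuN-negative nuclei and the 201 in CATCH-IT stayed called. At 5 hr, where 0 passed 0.05, 1 passed 0.1 and 5 were listed. Of the called regions 1 to 2 kept a 3-fold difference at 30 min and 1 to 3 at 2 hr when a value was left out. Alternatives added after seeing the data left 112 CATCH-IT regions outside the 380 bp width, with 36.6% gained, and 120 not carried by 1 library, with 43.3% gained, against 52.2% in all. The median log2 fold change with 1 count added to both means was -1.74 at 5 hr (against -2.13), 1.77 in NeuN-positive nuclei (1.96) and 2.14 in NeuN-negative nuclei (3.08), and with 0.5 added 1.86 in NeuN-positive and 2.51 in NeuN-negative nuclei, since an added count draws folds toward 1. Leaving out a value, with 0.5 added, gave medians of -2.04 to -1.49 at 2 hr, -1.97 to -1.69 at 5 hr, 1.78 to 1.89 in NeuN-positive and 2.42 to 2.57 in NeuN-negative nuclei. Of the values under alternatives, 150 stayed within the limits set around the reported one, 27 moved and 2 turned to a lost majority. Many of the 150 could hardly move. At 5 hr, with 0 called regions, leaving out values could not change the count. H3.3 groups did not overlap, so leaving out a value could not turn a direction. Limits were wide with few regions: at 30 min a share gained of 0% became 50% by ratio to input and counted as kept. No paired analysis was possible because the values carry no library names. Depth limits all of this: the higher group held 18 to 55 reads in total in H3.3 regions and a median of 18 in CATCH-IT regions.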

Other observations

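A region inside the annotated Grm4 gene was classed as intergenic by the authors and so was no member. At 5 hr it had 13.8, 14.1 and 18.9 normalised counts in KCl cultures and 7.08, 6.15 and 1.94 in controls. All KCl values lay above all control values, in a list where groups did not overlap in 100% of regions. The authors' deposited table gives it a log2 fold change of 1.62 and an adjusted p of 0.105.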
